A study of Homo sapiens with 36 samples.

Results

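The response to JQ1 of H446 cells that lack NEUROD1 was described from 17 of the 36 libraries of the study: 9 libraries treated with the solvent DMSO and 8 treated with JQ1, from 3 NEUROD1-knockout clones (clones 12, 15 and 2-1). They are the libraries that the labels give as knockout, less 1 library of clone 12 with JQ1 (replicate 1), which held lung and blood transcripts. H446 is a long-established line of human small-cell lung cancer, labelled as the subtype driven by the neural transcription factor NEUROD1. Every knockout clone carried the same NEUROD1 guide RNA and each is a single clone, grown in RPMI medium with fetal bovine serum. JQ1 was given at 1 µM for 24 h, with 3 biological replicates per clone and treatment. The 18 libraries of 3 control clones (3, 10 and 13) served as the response with NEUROD1 present. These carry a non-targeting guide RNA and had the same treatments. Whether NEUROD1 is needed for the response to BET inhibition is the question this comparison addresses.

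BET proteins, BRD2 and BRD3 among them, carry paired bromodomains that bind acetylated lysines of histones and help RNA polymerase II leave promoters and elongate, in part through the kinase P-TEFb. JQ1 fills the acetyl-lysine pocket and displaces these proteins from chromatin. In small-cell lung cancer, BET inhibitors are known for lowering transcripts that rest on large enhancers, those of lineage transcription factors among them, and for raising HEXIM1, the inhibitor of P-TEFb.

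Levels below are DESeq2-normalized counts, given as the mean ± SD of 3 clone means (n = 3). A log2 fold change is the JQ1 minus DMSO difference of mean log2(normalized count + 1), taken within each clone and averaged over the 3 clones, with its standard error (SE). This scale understates the change of low genes. Adjusted p-values are from limma with Benjamini-Hochberg adjustment over 14768 genes, two-sided, with a threshold of 0.05, and genes past it are said to have risen or fallen. The 17 libraries held 13918686 to 18890506 reads. The library that was left out held 31825795, and its summed lung epithelium markers stood at 86520 normalized counts against 1386 to 1951 in the 17. NEUROD1 (GRCh38 chromosome 2, 181673088 to 181680876, minus strand) was between 0 and 6.60 normalized counts in the DMSO libraries and between 0 and 10.2 in the JQ1 libraries, against 5134 to 6523 in control clones with DMSO. Of the other markers that define the line, INSM1, CHGA and SYP, high in control clones (2832, 3492 and 2313), were at 42.9, 18.8 and 99.2 in knockout clones with DMSO, while the neural adhesion molecule NCAM1 stood at 3729. The first 3 of these markers were thus low before treatment, so the labelled subtype holds for the parent line and not for these clones by those markers.

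JQ1 changed most genes of the knockout clones that could be tested. Of 14768 genes tested, 8653 (58.6%) passed the threshold, 4108 higher (27.8%) and 4545 lower (30.8%) with JQ1. The counts of each list below are to be read beside these shares, and a list near them says little about its members. The large changes were mostly falls: 1397 genes (9.46%) fell at least 2-fold and 533 (3.61%) rose at least 2-fold. Of the 8653 genes, 8521 (98.5%) moved in 1 direction in all 3 clones, and the DMSO and JQ1 libraries did not overlap for 2512 genes (17%). The median log2 fold change over all genes was -0.04. With the left-out library included, 7706 genes passed, of which 7421 were among the 8653, all with the same direction.

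**Figure D1:**
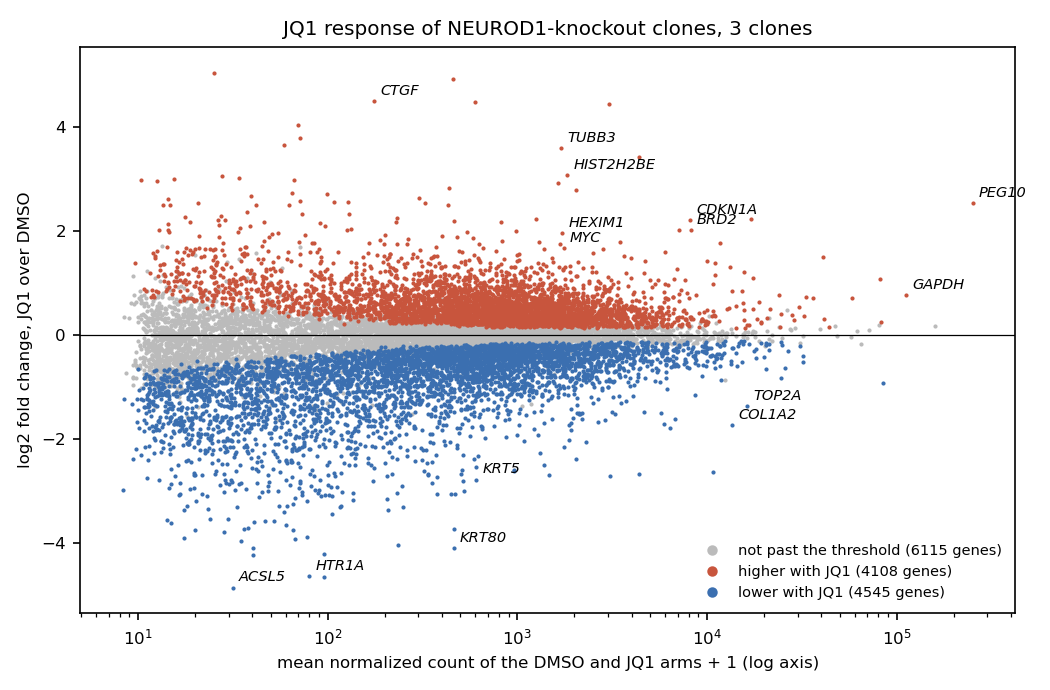
JQ1 response of each of the 14768 genes tested in the 3 knockout clones. The x axis is the mean normalized count of both treatment arms on a log axis and the y axis the log2 fold change with JQ1. Of these genes 4108 rose (red) and 4545 fell (blue). Falls of at least 2-fold outnumbered rises of that size (1397 against 533).

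Transcripts of BRD2 and BRD3, which JQ1 binds, rose. BRD2 (GRCh38 chromosome 6, 32968660 to 32981505, plus strand) stood at 2318 to 4099 with a median of 3495 in the 9 DMSO libraries and at 9389.8 to 16683 with a median of 12922 in the 8 JQ1 libraries. The arms did not overlap, and the log2 fold changes were 2.07 in clone 12, 2.06 in clone 15 and 1.89 in clone 2-1. Its mean went from 3263 ± 837 to 13132 ± 3458 (log2 fold change of 2.01 with an SE of 0.06, adjusted p = 2.05e-06). BRD3 rose from 533 ± 29.9 to 864 ± 80.9 (log2 fold change of 0.69 with an SE of 0.07, adjusted p = 7.76e-05), again without overlap. On the FPKM scale, in which reads are divided by gene length, BRD2 was at 88.6 ± 18.2 with DMSO and 345 ± 78.2 with JQ1, and BRD3 at 7.52 ± 0.824 and 9.77 ± 1.18.

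HEXIM1 (GRCh38 chromosome 17, 45148502 to 45152101, plus strand), which holds P-TEFb inactive and is used as a marker of BET inhibition in patients, stood at 416 to 931 with a median of 792 with DMSO and at 2049.8 to 3452 with a median of 2885 with JQ1. Every JQ1 library lay above every DMSO library, and clone 12, the lowest with DMSO, was also the lowest with JQ1. The mean rose from 716 ± 218 to 2738 ± 594 (log2 fold change of 1.96 with an SE of 0.09, adjusted p = 6.47e-06). Of 15 genes of P-TEFb, its inhibitors and the super elongation complex, 11 rose and 2 fell, with a median log2 fold change of 0.35. Beside HEXIM1 the rises of EAF2 (0.74, adjusted p = 0.00182) and ELL2 (0.69, adjusted p = 0.0106), both of the elongation complex, were largest. The paralog HEXIM2 fell from 107 ± 37.8 to 56.9 ± 17.1 (log2 fold change of -0.86 with an SE of 0.14, adjusted p = 0.000927). Of 8 genes reported elsewhere as markers of exposure to BET inhibitors, 7 rose and none fell, with a median of 1.64, HIST1H2BD (2.00, adjusted p = 1.52e-05), a histone gene, among them. SERPINI1, the neuronal serpin, was the exception (0.29, adjusted p = 0.31). Without clone 2-1 the rise of ELL2 was 0.34.

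MYC, a gene that BET inhibitors lower in many blood cancers, rose here. It stood at 509 to 1173 with a median of 779.8 with DMSO and at 1672 to 4174 with a median of 2227 with JQ1, with no overlap and log2 fold changes of 1.82 in clone 12, 1.64 in clone 15 and 1.54 in clone 2-1. The mean went from 827 ± 307 to 2679 ± 1239 (log2 fold change of 1.66 with an SE of 0.13, adjusted p = 2.51e-05). Of 12 genes of the MYC, MAX and MXD network 5 rose and 4 fell (median 0.08). The MYC antagonist MXD1 (0.84, adjusted p = 7.23e-05) and the glucose sensor MLXIP (0.77, adjusted p = 0.000133) rose. MLXIPL fell (-1.09, adjusted p = 0.000923). ODC1, the first enzyme of polyamine synthesis, rose, with DMSO libraries at 3971 to 8884 with a median of 5357 and JQ1 libraries at 18682 to 41599.7 with a median of 24652 (log2 fold change of 2.22 with an SE of 0.09, adjusted p = 3.61e-06). SAT1, which acetylates polyamines for export or breakdown, rose from 7318 ± 1189.7 to 18959 ± 7775 (log2 fold change of 1.31 with an SE of 0.15, adjusted p = 0.000165). Over 10 polyamine genes tested, 5 rose and 1 fell, with AZIN1 (0.51, adjusted p = 0.00151) and OAZ2 (0.30, adjusted p = 0.00177) among the rises. PEG10, a gene of retroviral origin chosen for mention after its values were seen, rose, with DMSO libraries at 47940 to 114617 with a median of 68774 and JQ1 libraries at 328544 to 558141 with a median of 399570 (log2 fold change of 2.54 with an SE of 0.12, adjusted p = 6.53e-06). It took 0.299% to 0.735% of the reads of a DMSO library and 1.96% to 3.41% of those of a JQ1 library.

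**Figure D2:**
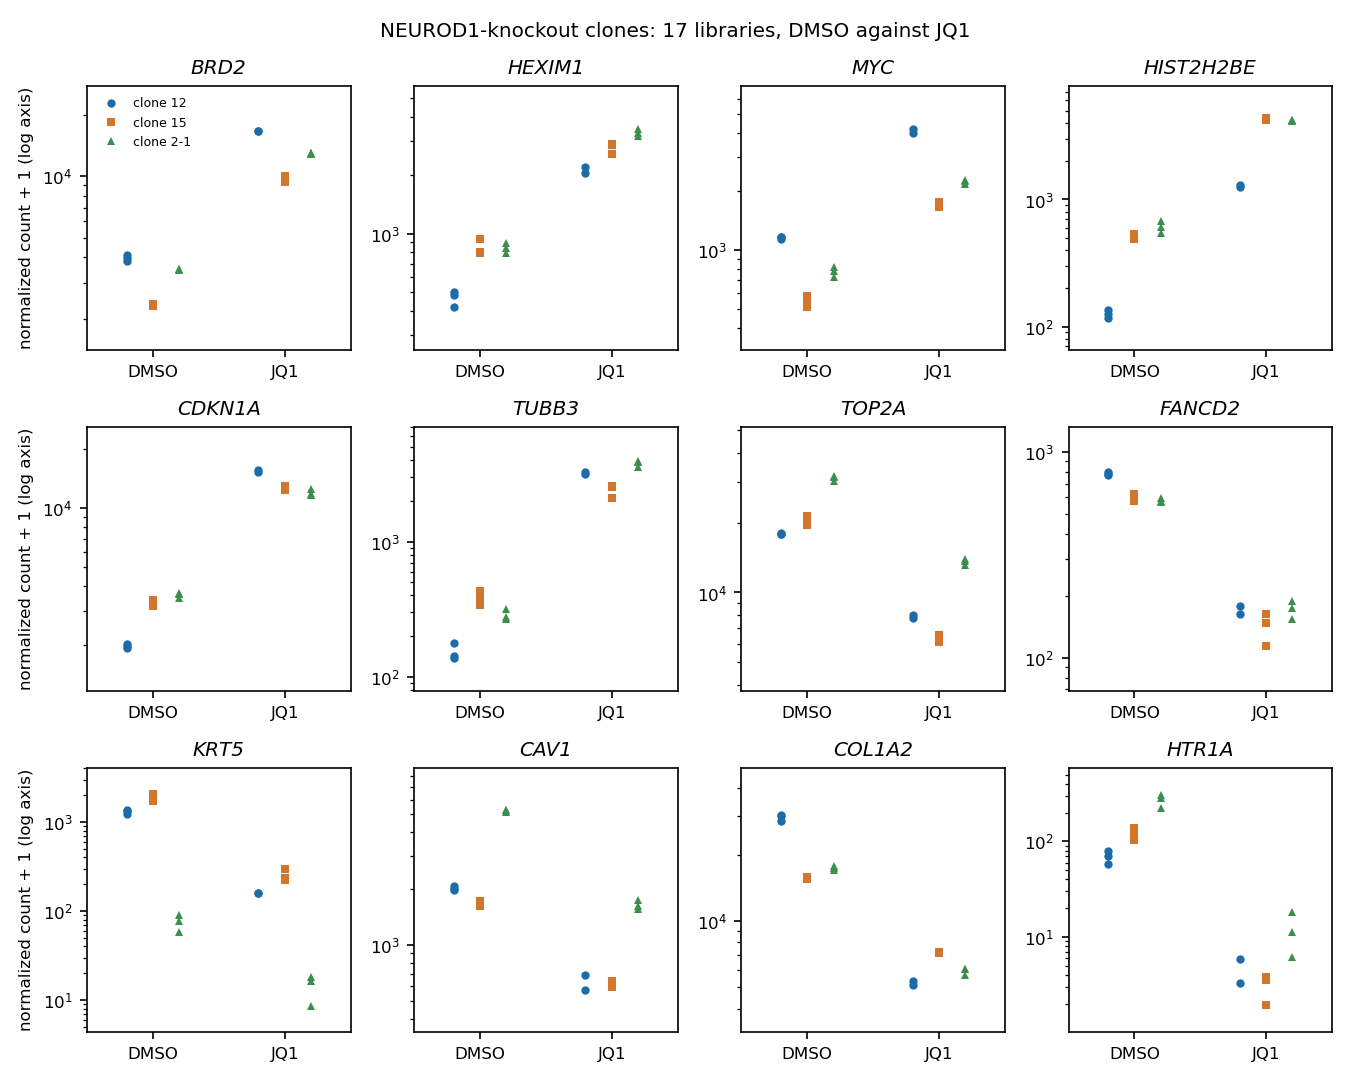
Normalized counts plus 1 (log axis) of 12 genes in each of the 17 knockout libraries, by treatment and clone; each point is 1 library. For BRD2, HEXIM1, MYC, HIST2H2BE, CDKN1A and TUBB3 every JQ1 library lies above every DMSO library, and for TOP2A, FANCD2, COL1A2 and HTR1A every JQ1 library lies below, while KRT5 and CAV1 fell within each clone from levels that differ between clones.

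Histone genes gave the highest median of all 50 lists. Of 30 replication-dependent histone genes tested, 26 rose and none fell, with a median log2 fold change of 2.08 (2.21 in clone 12, 2.05 in clone 15 and 1.88 in clone 2-1). Of the 30, 3 passed the filter on low values through 1 arm alone, meaning that 10 normalized counts were reached in at least 5 of 9 DMSO libraries or at least 4 of 8 JQ1 libraries but not in both arms. HIST2H2BE (GRCh38 chromosome 1, 149884459 to 149886652, minus strand), an H2B gene of the small histone cluster on chromosome 1, stood at 116 to 673 with a median of 512 with DMSO and at 1262 to 4339.5 with a median of 4214 with JQ1, without overlap (log2 fold change of 3.07 with an SE of 0.11, adjusted p = 3.61e-06). HIST2H3A, HIST2H3C, HIST2H4A and HIST2H4B of the same cluster were among the 12 largest rises, with log2 fold changes of 4.92, 4.47, 3.42 and 4.45 (adjusted p = 3.41e-05, 0.000342, 6.92e-06 and 0.00228). The H3 and H4 genes of this cluster exist as near-identical copies, so how reads were shared among them is uncertain, and HIST2H2BE is the firmer value. The preparation selects poly(A) RNA, whereas the usual transcripts of these genes end in a stem-loop without a poly(A) tail, so the values concern only the share that it captured. Replication-independent histone genes, whose transcripts are mostly polyadenylated, also rose (6 of 8, with 1 lower, median 0.54). They were led by H3F3B of histone H3.3 (1.15, adjusted p = 2.21e-05), H2AFX (0.70, adjusted p = 0.000389) and the linker histones H1F0 (0.70, adjusted p = 0.00211) and H1FX (0.63, adjusted p = 0.000871). SLBP, the protein that binds the histone stem-loop, rose from 1009.6 ± 76.6 to 2463 ± 510.2 (log2 fold change of 1.27 with an SE of 0.07, adjusted p = 9.82e-06).

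Promoters of H2B genes carry an octamer (ATTTGCAT) that the factor OCT1 binds, together with CCAAT and TATA boxes. A pair of H2B promoters is shown because both genes rose and each carries the octamer close to its start: HIST2H2BE (RefSeq, GRCh38.p14, chr1:149886683-149886832, minus strand) and HIST2H2BF (chr1:149812374-149812520, minus strand; log2 fold change of 2.33 with an SE of 0.21, adjusted p = 4.44e-05, named after its values were seen). The letters run 5′ to 3′ up to the start of transcription in GENCODE 29 or RefSeq, whichever lies further upstream, with the octamer, CCAAT boxes and TATAAA in capitals.
HIST2H2BE: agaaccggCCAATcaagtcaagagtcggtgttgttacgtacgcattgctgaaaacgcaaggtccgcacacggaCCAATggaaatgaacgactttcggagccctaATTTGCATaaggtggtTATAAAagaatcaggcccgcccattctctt
HIST2H2BF: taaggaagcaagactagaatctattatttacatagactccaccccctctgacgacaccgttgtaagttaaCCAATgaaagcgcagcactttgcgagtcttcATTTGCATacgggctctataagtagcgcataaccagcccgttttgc
The octamer begins 46 bases before the RefSeq start in HIST2H2BE and 49 bases before it in HIST2H2BF. Searched on both strands over the 250 bases before the start, ATTTGCAT was found in 12 of 27 replication-dependent histone genes with a RefSeq promoter (44.4%) and in 5 of 7 H2B genes among them, against 1.66% of 27305 RefSeq promoters and 1.27% of 10527 promoters of the genes tested. CCAAT was found in 22 of the 27 (81.5%) and in 35.5% of the genes tested. TATAAA was found in 16 (59.3%) and in 5.18%. HIST2H4A and HIST2H4B, among the largest rises, had none of these letters in this window. A match describes the sequence and does not show that a factor binds there.

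Genes of mitosis fell. Of 56 G2/M genes, 40 fell and 5 rose, with a median log2 fold change of -0.47. TOP2A, the topoisomerase that untangles replicated DNA, stood at 17789.7 to 31638 with a median of 21171 with DMSO and at 6108 to 13920.2 with a median of 7894 with JQ1. The lowest DMSO library lay above the highest JQ1 library (log2 fold change of -1.36 with an SE of 0.15, adjusted p = 0.000106). The histone chaperone ANP32E (-1.23, adjusted p = 1.62e-05) and the mitotic kinase AURKA (-1.21, adjusted p = 4.78e-05), which went from 2094 ± 137 to 903 ± 55, were the next largest falls. TUBB4B, a beta-tubulin, was the list's largest rise (5568 ± 2485 to 14298 ± 3053, log2 fold change of 1.43 with an SE of 0.13, adjusted p = 5.09e-05). G1/S genes moved both ways, with 18 of 52 higher and 18 lower. CCNE2, a cyclin of S-phase entry (1.30, adjusted p = 5.5e-05), rose with SLBP. The repressor E2F8 fell (-1.27, adjusted p = 4.52e-05). Of 32 homologous recombination and Fanconi genes 14 fell and 7 rose (median -0.05). FANCD2, the central protein of the Fanconi pathway, fell, with DMSO libraries at 570.0 to 797 with a median of 614 and JQ1 libraries at 112 to 188 with a median of 162 (log2 fold change of -2.03 with an SE of 0.13, adjusted p = 1.23e-05). FANCI (-0.80, adjusted p = 4.67e-05) and MUS81 (-0.75, adjusted p = 0.000136) fell as well.

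Mitotic promoters often pair CCAAT boxes with the cell cycle homology region (TTTGAA). TOP2A, which fell, and TUBB4B, which rose, are shown because both promoters hold this pair although the genes moved in opposite directions: TOP2A (RefSeq, GRCh38.p14, chr17:40417951-40418066, minus strand) and TUBB4B (chr9:137241037-137241212, plus strand). Capitals mark TTTGAA and CCAAT on either strand, so TTCAAA and ATTGG are the same motifs on the other strand.
TOP2A: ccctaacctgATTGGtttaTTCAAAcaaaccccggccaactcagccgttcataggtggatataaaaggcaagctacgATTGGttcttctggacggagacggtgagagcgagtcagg
TUBB4B: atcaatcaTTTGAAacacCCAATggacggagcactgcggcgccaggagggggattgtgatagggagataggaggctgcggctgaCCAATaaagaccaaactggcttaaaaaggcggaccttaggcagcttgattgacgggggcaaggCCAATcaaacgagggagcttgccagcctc
TTTGAA was found in 24 of 46 G2/M genes with a RefSeq promoter (52.2%), in 2 of 41 G1/S genes (4.88%) and in 8.28% of the genes tested. CCAAT was found in 32 of the 46 (69.6%) and in 28 of the 41 (68.3%). These shares belong to the lists, which were chosen for their place in the cell cycle and not for their response.

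The cell cycle inhibitor CDKN1A stood at 1941 to 3714 with a median of 3337 with DMSO and at 11593 to 15529.8 with a median of 12461 with JQ1, with no overlap (log2 fold change of 2.20 with an SE of 0.21, adjusted p = 6.08e-05). CDKN2D (0.81, adjusted p = 0.00105) and CDKN2B (0.70, adjusted p = 0.0096) of the INK4 family rose less. CCND1, cyclin D1, fell from 370.3 ± 204 to 148 ± 86 (log2 fold change of -1.30 with an SE of 0.11, adjusted p = 4.08e-05). Of 17 p53 target genes 10 rose and 4 fell (median 0.56). MDM2, the ubiquitin ligase of p53, rose, with DMSO libraries at 1350.2 to 2302 with a median of 2148 and JQ1 libraries at 5032 to 5782 with a median of 5399 without overlap (log2 fold change of 1.51 with an SE of 0.12, adjusted p = 3.04e-05). The death receptor FAS (-2.15, adjusted p = 0.000137) and the stress cytokine GDF15 (-3.75, adjusted p = 0.000144) fell. Without clone 12 the rise of CDKN2B was 0.44 and did not pass (adjusted p = 0.0515), nor did it without clone 15 (adjusted p = 0.0567).

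BCL2, the survival protein, did not pass the threshold: it stood at 146 to 328 with a median of 299.9 with DMSO and at 153 to 417 with a median of 307 with JQ1, and the arms overlapped (log2 fold change of 0.17 with an SE of 0.15, adjusted p = 0.348). MCL1 rose from 4261 ± 1135 to 8122 ± 417 (log2 fold change of 0.96 with an SE of 0.12, adjusted p = 0.000223). BCL2L1 fell (-0.55, adjusted p = 0.0192), with log2 fold changes of -1.15 in clone 12, -0.09 in clone 15 and -0.41 in clone 2-1. Without clone 12 that fall was -0.25 with an adjusted p of 0.061 (limma). Of 11 pro-apoptotic members 4 rose and 3 fell (median 0.16), near the shares of all genes tested (27.8% and 30.8%). PMAIP1 (1.30, adjusted p = 8.75e-05), BCL2L11 (0.97, adjusted p = 0.000529) and BNIP3 (0.72, adjusted p = 0.000242) rose, and BOK fell (-0.74, adjusted p = 0.0143).

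The knockout clones express genes of basal epithelium that are mostly under 10 normalized counts in control clones (9 of the 12 tested), and most of these fell. Of 12 basal epithelial genes tested, 8 fell and none rose, with a median log2 fold change of -1.70, the lowest of the lists with at least 8 genes tested. The lists were chosen with earlier results of these data known, so this rank is a description only. KRT5, the keratin of basal cells, stood at 57.4 to 2049.5 with a median of 1313 with DMSO and at 7.53 to 294 with a median of 159 with JQ1. The arms overlapped only because clone 2-1 began low: the clone means went from 1303 to 159 in clone 12, from 1833 to 251 in clone 15 and from 73.7 to 13.3 in clone 2-1 (log2 fold change of -2.78 with an SE of 0.23, adjusted p = 3.25e-05). All 18 control libraries held 0 KRT5 reads. KRT15 (-2.66, adjusted p = 0.00538), KRT75 (-2.38, adjusted p = 0.000882) and the checkpoint adaptor SFN (-2.82, adjusted p = 0.000578) fell as well. KRT75 also belongs to the list that follows, which the knockout DMSO libraries chose. KRT80, a keratin of differentiating epithelium that control clones also held (22.9 to 104 with DMSO), fell further (862 ± 615 to 58.2 ± 58.7, log2 fold change of -4.10 with an SE of 0.44, adjusted p = 0.000102). So did MIR205HG, the host transcript of an epithelial microRNA (182 ± 205 to 7.13 ± 5.34, log2 fold change of -4.21 with an SE of 0.40, adjusted p = 5.98e-05). Of the 12 basal genes 1 passed the filter through 1 arm alone. Without clone 15 the fall of KRT15 was -1.51.

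A list of 20 genes that an earlier look at these libraries found high in knockout clones is given member by member. The knockout DMSO libraries chose that list and are also 1 side of this comparison, so its counts support nothing about direction. Of the 20 genes, 13 fell and none rose (median -0.75). The largest fall was that of CHRNA9, a nicotinic receptor subunit (387 to 1511 with a median of 719 with DMSO and 28 to 127 with a median of 51.7 with JQ1, log2 fold change of -3.74 with an SE of 0.30, adjusted p = 2.84e-05). The receptor kinase AXL was next (156 ± 169 to 39.8 ± 54.9, log2 fold change of -2.50 with an SE of 0.35, adjusted p = 0.000426). The keratin KRT75, the basal master factor TP63 (-1.80, adjusted p = 0.00172), the serpin SERPINB5 (-1.60, adjusted p = 0.00172), the fatty acid transporter SLC27A6 (-1.48, adjusted p = 0.000279) and the EGF receptor ligand TGFA (-1.48, adjusted p = 0.000605) followed. TP63 shows how far clones differ before treatment: its mean was 20645 in clone 12, 4972 in clone 15 and 130.2 in clone 2-1 with DMSO, and 11758, 936 and 28 with JQ1.

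Smaller falls in that list were those of the secreted glycoprotein CHI3L1 (-1.05, adjusted p = 0.00833), the fibrillin FBN2 (-0.82, adjusted p = 0.00363), the neuropeptide CALCB (-0.78, adjusted p = 0.023), the adaptor PLEKHA2 (-0.72, adjusted p = 0.0103), the metalloprotease inhibitor TIMP1 (-0.71, adjusted p = 0.027) and the scaffold AHNAK (-0.67, adjusted p = 0.00174). The other 7 did not pass the threshold. MET, the receptor of hepatocyte growth factor, had a log2 fold change of -0.31, S100A10 of -0.13, TGFB1 of -0.13, NOTCH1 of -0.03, the junction protein JUP of 0.04, HES1 of 0.39 and PDK4 of 0.47. The signs of S100A10, NOTCH1 and JUP turned under other settings.

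**Figure D3:**
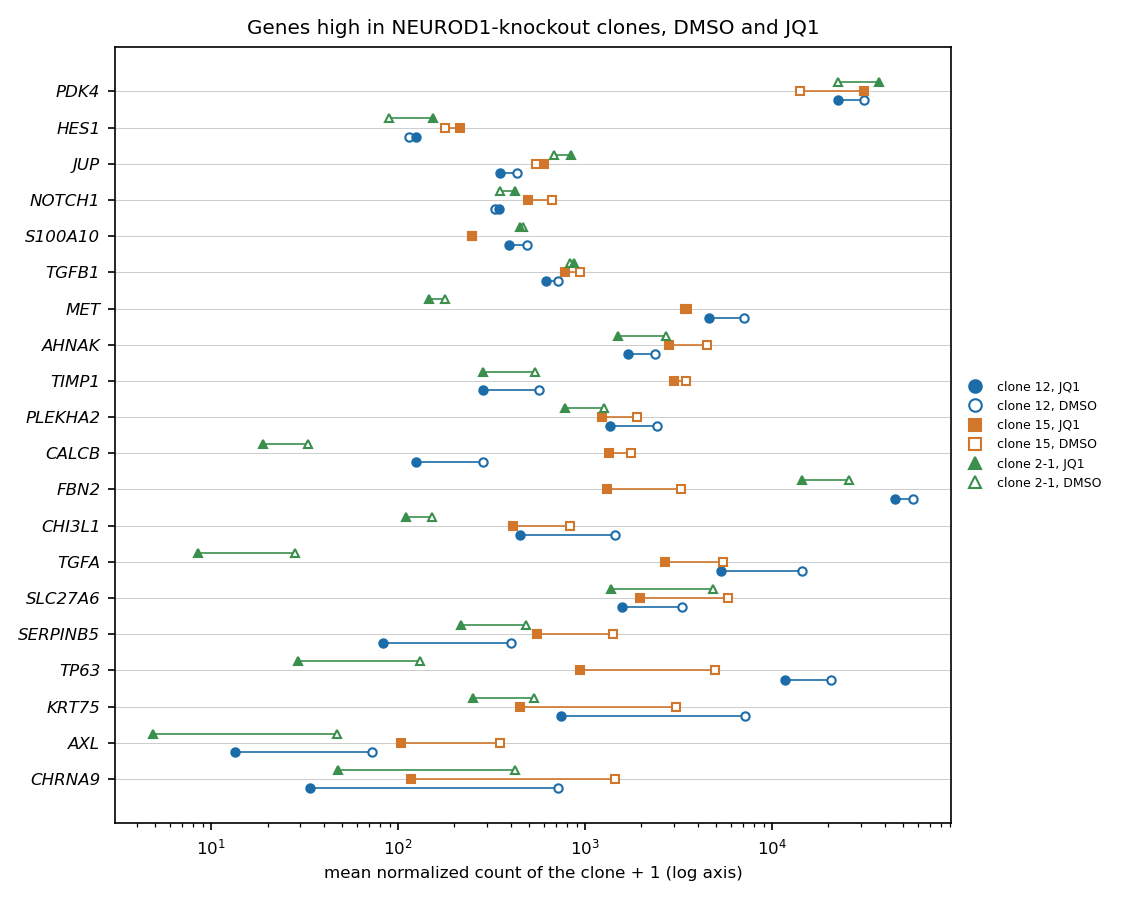
Mean normalized count plus 1 (log axis) of each knockout clone with DMSO (open) and with JQ1 (filled) for the 20 genes found high in knockout clones, ordered by log2 fold change. CHRNA9 and AXL, at the bottom, fell in each clone, while PDK4 at the top was higher with JQ1 in clones 15 and 2-1 and lower in clone 12.

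Neuroendocrine and non-neuroendocrine genes, the paired lists by which small-cell lung cancer lines are ranked, moved in opposite directions. Of 17 neuroendocrine genes tested 11 rose and 2 fell (median 0.59), and of 17 non-neuroendocrine genes 10 fell and 1 rose (median -0.83). Chromogranin A (CHGA), a protein of secretory granules, stood at 7.05 to 35.9 with a median of 15.4 with DMSO and at 27.5 to 91.4 with a median of 41.5 with JQ1 (log2 fold change of 1.55 with an SE of 0.10, adjusted p = 1.23e-05). The arms overlapped, and the JQ1 level (54.2 ± 28.2) stayed far below that of control clones (3492 ± 772 with DMSO). SYN1, a synaptic vesicle protein, rose from 8.98 ± 5.59 to 41.7 ± 20.7 (log2 fold change of 2.22 with an SE of 0.18, adjusted p = 2.92e-05). The presynaptic scaffold BSN rose from 83.4 ± 25 to 242 ± 5.39 (log2 fold change of 1.57 with an SE of 0.14, adjusted p = 4.44e-05). Synaptophysin (SYP) rose from 99.2 ± 35.8 to 192 ± 53.3 (log2 fold change of 0.96 with an SE of 0.11, adjusted p = 0.000157). RUNDC3A fell (-1.83, adjusted p = 0.000258). So did INSM1, a neuroendocrine zinc finger factor (-0.51, adjusted p = 0.0336), by a call that edgeR on summed reads did not make (adjusted p = 0.0712). For INSM1 the value was -0.78 without clone 12 and -0.25 without clone 2-1, where it did not pass (adjusted p = 0.187). In clone 12 its mean was 43.4 with DMSO and 43.8 with JQ1. Of 25 synaptic vesicle and secretion genes 13 rose and 8 fell, the granule protein SCG2 (4147 ± 4036 to 1178 ± 1100.0, log2 fold change of -1.68 with an SE of 0.17, adjusted p = 7.86e-05) and the active-zone protein RIMS2 (-1.75, adjusted p = 5.53e-05) among the falls.

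TUBB3, the beta-tubulin of neurons, was among the largest rises of the knockout clones. It stood at 138 to 434 with a median of 275 with DMSO and at 2113 to 3951 with a median of 3199 with JQ1, without overlap (log2 fold change of 3.59 with an SE of 0.30, adjusted p = 3.24e-05). The glutamate receptor GRM2 rose from 6.21 ± 1.09 to 59.5 ± 26.6 (log2 fold change of 3.02 with an SE of 0.20, adjusted p = 1.5e-05). Another large rise was that of CTGF, a matricellular growth factor (4.03 to 25.6 with a median of 11.7 with DMSO and 211 to 589 with a median of 240.2 with JQ1, log2 fold change of 4.50 with an SE of 0.38, adjusted p = 3.62e-05). Further ones were those of TEX14, a protein of germ cell bridges (7.12 ± 4.09 to 131 ± 65.5, log2 fold change of 4.04 with an SE of 0.36, adjusted p = 4.16e-05), SLFN5 (2.98, adjusted p = 0.000568) and RP11-196G18.3 (3.65, adjusted p = 7.34e-05). F8A3 (3.78, adjusted p = 0.000106) lies inside a repeated segment of the X chromosome and has near-identical copies, so its value is uncertain (2.13 without replicate 2).

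Among the non-neuroendocrine genes, caveolin CAV1 fell from 2969 ± 1955 to 958 ± 583 (log2 fold change of -1.60 with an SE of 0.09, adjusted p = 9.61e-06). The interferon-induced membrane protein IFITM3 stood at 10.3 to 337 with a median of 279 with DMSO and at 0 to 56.4 with a median of 30.3 with JQ1 (log2 fold change of -3.02 with an SE of 0.39, adjusted p = 0.000253). The arms overlapped, and clone 2-1 held less of it than the others before treatment (mean 15.5, against 298 in clone 12 and 306 in clone 15). The ferlin MYOF (-2.88, adjusted p = 3.49e-05) and the transporter ABCC3 (-2.66, adjusted p = 0.000122) also fell. The Hippo effector YAP1 went from 81.5 ± 76 to 36.3 ± 29.6 (log2 fold change of -1.06 with an SE of 0.35, adjusted p = 0.0291). Of 22 YAP and TAZ targets 10 fell and 5 rose (median -0.31). CTGF, above, was the largest of the rises and IGFBP3 (-1.62, adjusted p = 0.0163) was among the falls. Clone 2-1 held little IGFBP3 with DMSO (15.8, against 12901 in clone 12), and without that clone the value was -0.93 and did not pass (adjusted p = 0.0944).

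Genes of the extracellular matrix fell. Of 27 collagens, matrix proteins and proteases 21 fell and 1 rose, with a median log2 fold change of -0.82, and 3 of the 27 passed the filter through 1 arm alone. COL1A2 stood at 15474 to 30172 with a median of 17396 with DMSO and at 5113 to 7248 with a median of 6028 with JQ1, without overlap (log2 fold change of -1.73 with an SE of 0.26, adjusted p = 0.00066). COL3A1 (8496 ± 3266 to 2872 ± 499, log2 fold change of -1.49 with an SE of 0.16, adjusted p = 0.000102), COL6A3 (-2.42, adjusted p = 0.00198) and the membrane protease MMP14 (-2.39, adjusted p = 6.42e-05) fell too. Markers of stroma and vessels moved with these genes and share collagens with them. All 6 tested fell, LUM (-2.71, adjusted p = 3.9e-05) and ACTA2 (-1.81, adjusted p = 0.00018) among them. The sum of the 10 in the table was 25838 to 55401 in DMSO libraries and 8504 to 12829 in JQ1 libraries. Among these markers, LUM reached 16668 with DMSO and 2130 with JQ1, DCN 9565 and 1025, and the vessel marker CDH5 271 and 9.34, while PDGFRB was at most 3.71 and VWF at most 5.65 in any of the 17. Whether cells of another kind had a part in the fall was not tested. In bulk RNA, fewer cells that express a gene and less of its RNA per cell cannot be told apart.

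Of the 12 lung epithelium markers in the table, CEACAM6, CEACAM5, SFTPA1 and SLC34A2 were at 0 in all 17 libraries. The 12 summed to 1386 to 1829 with DMSO and 1599 to 1951 with JQ1. ABCA3 made up most of these sums, reaching 1699 with DMSO and 1933 with JQ1, and every other marker was at most 70.1. Of 5 tested, 4 of which passed the filter through 1 arm alone, 2 fell, MUC1 (-2.50, adjusted p = 0.000517) and AGER (-2.08, adjusted p = 0.000851). Of 9 blood cell markers, which summed to 263 to 952 with DMSO and 227 to 926 with JQ1, CD68 made up most, PTPRC was at most 7.42, and CD14 fell (-1.71, adjusted p = 0.00701), the sole call of 2 tested, and passed the filter through 1 arm alone. TRAC, the constant segment of a T-cell receptor chain, was among the largest falls (82.7 to 366 with a median of 121 with DMSO and 0 to 18.7 with a median of 5.8 with JQ1, log2 fold change of -4.66 with an SE of 0.64, adjusted p = 0.000389).

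Receptor kinases and their ligands mostly fell. Of 10 genes of the EGF receptor family 6 fell and none rose (median -0.83). The ligand NRG1 fell from 700.0 ± 853 to 127 ± 113 (log2 fold change of -2.12 with an SE of 0.28, adjusted p = 0.000282). The receptor ERBB2 fell from 115 ± 40.7 to 43 ± 8.66 (log2 fold change of -1.38 with an SE of 0.16, adjusted p = 0.00016). EGFR itself rested on few clones, with DMSO means of 3344 in clone 12, 44 in clone 15 and 0.314 in clone 2-1. Its fall (log2 fold change of -1.27 with an SE of 0.45, adjusted p = 0.0369) was lost with DESeq2 (adjusted p = 0.0943) and, at -0.61, without clone 15 (adjusted p = 0.249). Of 8 genes of the MET, RON and TAM receptors and their ligands 6 fell and 1 rose (median -0.63). TYRO3 (-1.16, adjusted p = 3.33e-05) and MST1 (-1.14, adjusted p = 0.00965) fell with AXL. HGF, the ligand of MET, rose from 1819 ± 332 to 3344 ± 716 (log2 fold change of 0.87 with an SE of 0.17, adjusted p = 0.00217), though not in FPKM (log2 fold change 0.12, adjusted p = 0.587). Without clone 12 the rise of HGF was 0.55.

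Of 18 Wnt pathway genes 10 fell and 3 rose (median -0.54). The ligand WNT5B (-2.09, adjusted p = 6.73e-05), the receptor FZD2 (-1.86, adjusted p = 0.000101), the feedback gene AXIN2 (-1.66, adjusted p = 0.00308) and the nuclear factor TCF7 (-1.17, adjusted p = 0.00041) fell. Notch genes moved both ways, with 9 of 20 higher and 4 lower (median 0.18). The receptor NOTCH3 fell from 106 ± 142 to 20.7 ± 31.7 (log2 fold change of -2.73 with an SE of 0.38, adjusted p = 0.000385). NRARP, a feedback target (2.17, adjusted p = 9.72e-05), HES6 (1.90, adjusted p = 9.59e-05) and HEY2 (1.76, adjusted p = 0.000263) rose. Of 28 TGF-beta pathway genes 10 rose and 10 fell (median -0.09), beside 27.8% and 30.8% of all genes tested. The ligand BMP2 (-2.86, adjusted p = 0.000219) and the receptor ACVR2B (-1.46, adjusted p = 0.000105) fell. The BMP target genes ID1 (362 ± 158 to 1299.6 ± 563, log2 fold change of 1.81 with an SE of 0.18, adjusted p = 7.03e-05) and ID2 (1.80, adjusted p = 3.13e-05) rose.

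Genes of antigen presentation mostly fell, and interferon and inflammatory genes moved both ways. Of 12 MHC class I presentation genes 7 fell and 1 rose (median -0.61), with 3 of the 12 passing the filter through 1 arm alone. The peptide trimmer ERAP1 (-1.45, adjusted p = 6.81e-05), the loading factor TAPBP (-1.32, adjusted p = 8.64e-05), the chaperone CALR (-0.65, adjusted p = 4.71e-05) and the peptide transporter TAP1 (-1.73, adjusted p = 0.00402) fell. Of 18 interferon-stimulated genes 7 fell and 5 rose (median -0.42, and -0.04 with the left-out library included). BST2 (-2.44, adjusted p = 0.000153), PARP12 (-2.20, adjusted p = 0.00108), IFI44L (-1.56, adjusted p = 0.000535) and IFIT1 (-1.51, adjusted p = 0.0014) had the largest changes. Of 10 NF-kB and inflammatory genes 4 fell and 2 rose (median -0.22). The cytokines IL6 (125 ± 149.9 to 6.38 ± 4.62, log2 fold change of -3.14 with an SE of 0.86, adjusted p = 0.013) and LIF (-2.29, adjusted p = 0.00512) and the adhesion molecule ICAM1 (-2.24, adjusted p = 0.00101) fell. The inhibitor NFKBIE rose (0.45, adjusted p = 0.0135). For IL6 the log2 fold changes were -6.25 in clone 12, -2.62 in clone 15 and -0.55 in clone 2-1, and without clone 12 its fall was -1.58 and that of LIF -1.31. Without clone 2-1 the rise of NFKBIE did not pass (adjusted p = 0.075).

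The most negative fitted change was that of ACSL5, which activates fatty acids (limma log2 fold change -4.86 averaged over clones, adjusted p = 8.87e-05), a gene that passed the filter through the DMSO arm alone. Its DMSO means were 139 in clone 12, 13.9 in clone 15 and 29.4 in clone 2-1. The 9 DMSO libraries held 509 reads and the 8 JQ1 libraries 3, a 159-fold ratio over pooled reads scaled by size factor (95% exact interval 54.2 to 774, counting error only), in which clone 12 has 1 JQ1 library fewer. The serotonin receptor HTR1A fell, with DMSO libraries at 57.2 to 302 with a median of 121 and JQ1 libraries at 0.934 to 17 with a median of 3.84 (log2 fold change of -4.64 with an SE of 0.26, adjusted p = 9.35e-06). The focal adhesion protein TNS4 (-4.23, adjusted p = 0.000357), the urea transporter SLC14A1 (-4.03, adjusted p = 0.000496), the apolipoprotein APOL4 (-3.96, adjusted p = 1.52e-05), the inflammatory gene TNFAIP2 (-3.92, adjusted p = 6.5e-05), the endothelin EDN2 (-3.88, adjusted p = 5.45e-05), the secreted protein EGFL6 (-3.78, adjusted p = 0.000107) and the noncoding LINC00519 (-4.09, adjusted p = 0.000155) complete the 12 largest falls.

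Cytoplasmic ribosomal protein genes mostly fell, by small amounts. Of 52, 38 fell, 1 rose and 13 did not pass, with a median log2 fold change of -0.27 (-0.23 in clone 12, -0.37 in clone 15 and -0.17 in clone 2-1). RPL29 went from 6039 ± 826 to 3405 ± 642 without overlap (log2 fold change of -0.83 with an SE of 0.08, adjusted p = 4.64e-05). The falls were smaller for RPL6 (-0.60, adjusted p = 8.29e-05), RPL30 (-0.55, adjusted p = 5.63e-05) and RPS15 (-0.52, adjusted p = 0.00153). The list's median stayed between -0.22 and -0.33 with equal library totals, TMM, FPKM, edgeR and DESeq2. Nucleolar genes that assemble ribosomes moved both ways, with 15 of 40 higher and 13 lower (median -0.04). PPAN (-1.03, adjusted p = 4.04e-05), GAR1 (-0.90, adjusted p = 0.000168) and RRS1 (-0.68, adjusted p = 5.94e-05) fell and NOP56 rose (0.72, adjusted p = 2.65e-05).

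Stress and early-response genes rose in part. Of 28 immediate early and AP-1 genes 16 rose and 2 fell (median 0.61). They include ATF3 (305 ± 64.3 to 874 ± 92, log2 fold change of 1.53 with an SE of 0.11, adjusted p = 2.02e-05), the neuronal gene ARC (2.99, adjusted p = 8.29e-05) and the phosphatases DUSP5 (1.92, adjusted p = 7.24e-05) and DUSP1 (1.74, adjusted p = 1.13e-05), all higher. Of 12 heat shock genes 6 rose and none fell (median 0.20). The rises include HSP90AA1 (52458 ± 6472 to 110789 ± 8368, log2 fold change of 1.08 with an SE of 0.07, adjusted p = 1.13e-05), DNAJB1 (1.10, adjusted p = 5.14e-05), HSPA8 (0.70, adjusted p = 0.000635) and HSPA1B (0.47, adjusted p = 0.0127). With equal library totals the counts were 4 and 1. Without clone 2-1 the rise of HSPA1B was 0.27 and did not pass (adjusted p = 0.0639). PTMA, prothymosin alpha, rose as well (1.49, adjusted p = 6.92e-06) and was named after its values were seen. Of 33 glycolysis and hypoxia genes 15 rose and 6 fell (median 0.20). GAPDH stood at 70264 to 90585 with a median of 86373 with DMSO and at 106952 to 166296 with a median of 149873 with JQ1, without overlap (log2 fold change of 0.77 with an SE of 0.07, adjusted p = 5.03e-05). TPI1 (0.77, adjusted p = 0.000571) and EGLN3 (0.76, adjusted p = 0.000183) rose. CA9, the carbonic anhydrase of hypoxic cells, fell from 583 ± 172 to 93 ± 31.6 (log2 fold change of -2.67 with an SE of 0.20, adjusted p = 2.11e-05).

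**Figure D4:**
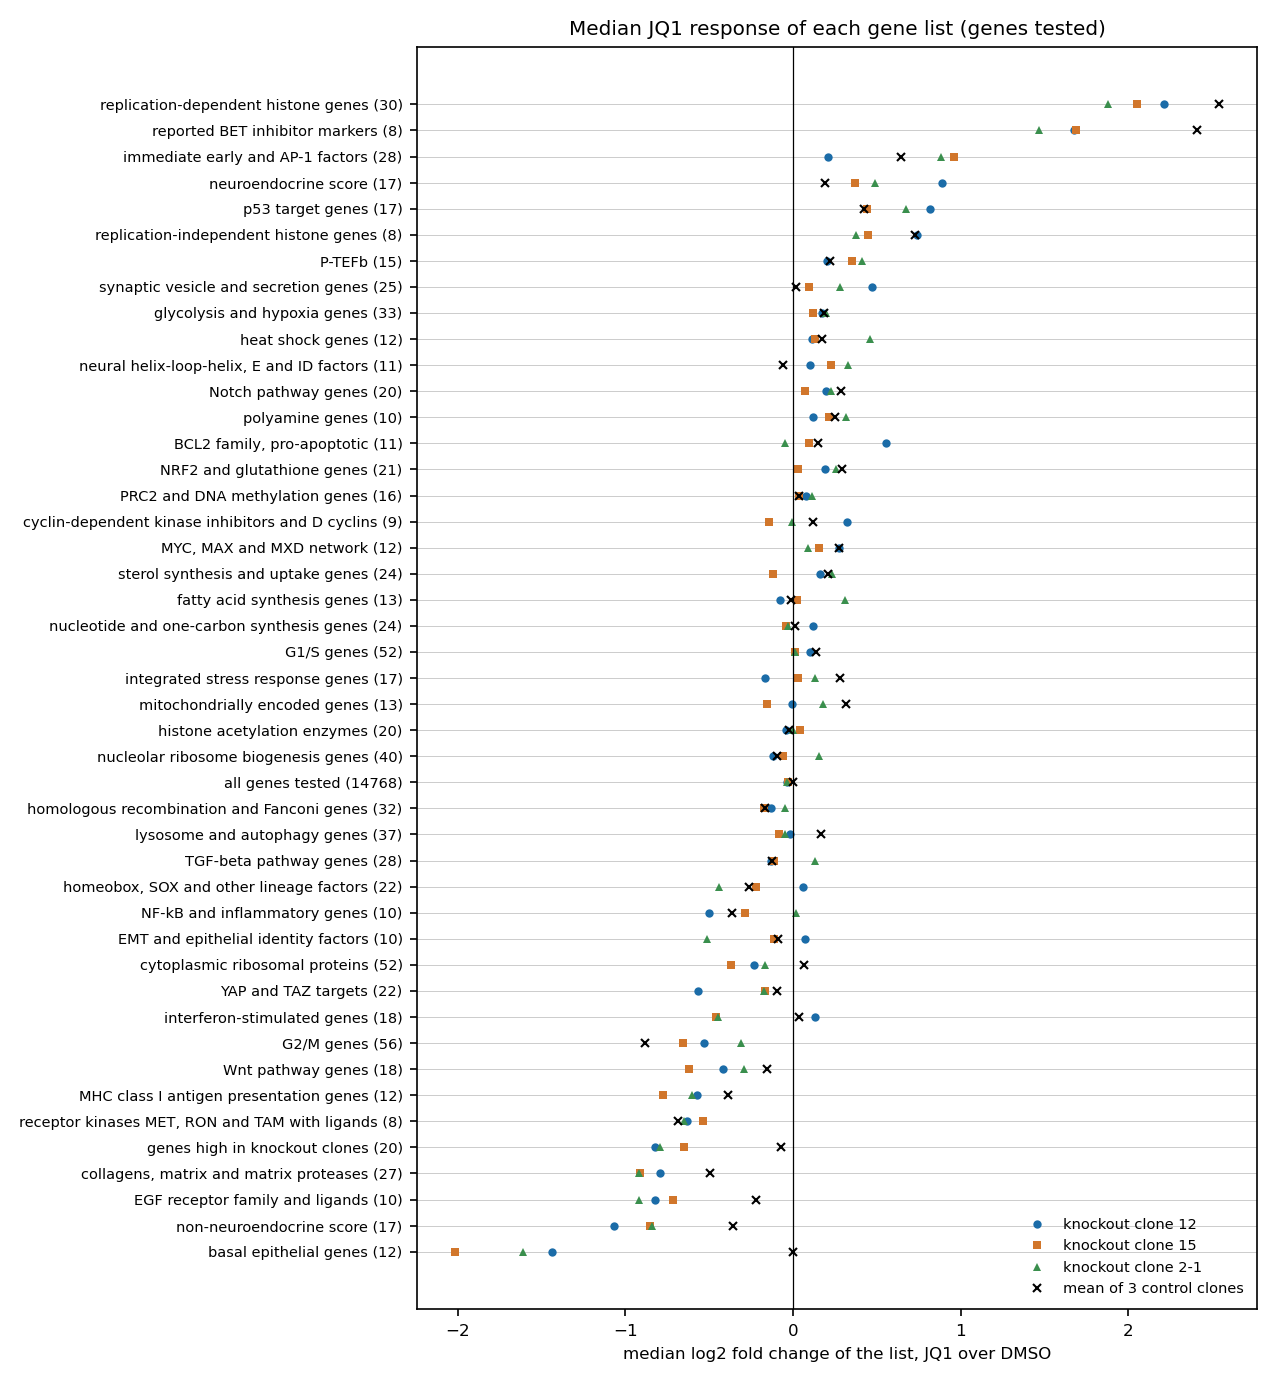
Median log2 fold change with JQ1 of each gene list with at least 8 genes tested, in each knockout clone (colours) and as the mean response of the 3 control clones (crosses), with the number of genes tested in parentheses. Histone genes lie highest in each clone and basal epithelial genes lowest. The basal list has a control median of 0, but 9 of its 12 genes averaged under 10 counts in both arms of the control clones. No response could be measured there for those 9.

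The response was then set beside that of the control clones, which share no library with the knockout clones. In control clones 7929 genes (53.7%) passed the threshold in the same model. Across genes the log2 fold changes of both genotypes had a Pearson r of 0.764 (14768 genes, which are not independent and share the scaling of the table). Of the genes called, 5909 passed in both genotypes with 1 direction, 68.3% of the knockout calls and 74.5% of the control calls, and 137 passed in both with opposite directions. Many large falls could not be looked for in control clones: in 286 of the 1397 genes that fell at least 2-fold, and in 17 of the 533 that rose as far, control clones averaged under 10 normalized counts in both arms. HEXIM1 rose from 459 to 2138 there (log2 fold change 2.22) and MYC from 1911 to 3808 (1.08). The difference between genotypes did not pass for either (adjusted p = 0.23 and 0.0825). Of the 8 genes reported as markers of BET inhibitors, 3 had a more negative response in knockout clones and none a more positive one. Their median was 1.64, against 2.41 in control clones. Of the 30 replication-dependent histone genes 4 were more negative and none more positive (median 2.08, against 2.54). Over all genes 3.91% were more negative.

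The response itself differed between genotypes for 1141 genes (7.73%), 564 more positive (3.82%) and 577 more negative (3.91%) in knockout clones. This count rests on few clones: it was 12 without control clone 10, 75 without control clone 13, and 104 without control clone 3. It was 189 without knockout clone 15, 1204 without clone 12 and 1583 without clone 2-1, and 428 with the left-out library included. In 57 of the 1141 genes control clones were under 10 normalized counts in both arms, MIR205HG and TNFAIP2 among them, so no response could be measured there. Among genes with counts in both genotypes, the alternative splicing factor SRRM3 fell in knockout clones (12.3 to 158 with a median of 62.7 with DMSO and 0 to 22.5 with a median of 2.85 with JQ1) and went from 187 to 244 in control clones (difference of log2 fold changes -4.11, SE 0.54, adjusted p = 0.0107). SYT12, a synaptotagmin, fell in knockout clones (-1.33) and rose in control clones (2.49, difference -3.81, adjusted p = 0.00418). EPHB3, an ephrin receptor, had -0.35 in knockout clones without passing and rose in control clones from 2.54 to 38.1 (difference -3.87, adjusted p = 0.00652).

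In the other direction, ITPR2, a calcium release channel, had a log2 fold change of 0.02 in knockout clones and fell in control clones (-2.36, difference 2.38, adjusted p = 0.0107). ADAMTS3 (-0.65 against -3.45, adjusted p of the difference 0.0201), BANK1 (-2.55 against -4.75, 0.0129), TTN (1.83 against -0.47, 0.049) and F8A3 (3.78 against 1.26, 0.0377) complete the largest positive differences. MDM2 rose in knockout clones and stood at 1418 to 2838 with DMSO and 1551 to 3692 with JQ1 in control clones, where it did not pass (0.17, difference 1.34, SE 0.17, adjusted p = 0.0107). The neuroendocrine genes SYN1 (difference 1.99, adjusted p = 0.0107), BSN (1.36, 0.0131), CHGA (1.11, 0.01) and SYP (1.08, 0.0136) had a more positive response in knockout clones, where their levels were low. SCG2 fell in knockout clones and had 0.17 in control clones (difference -1.85, adjusted p = 0.0107). Without clone 12 the knockout response of TTN was 1.06.

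CCND1 (difference -1.13, adjusted p = 0.0129) and CAV1 (-0.81, 0.0171) had a more negative response in knockout clones. BRD2 (0.41, 0.0274) and ODC1 (0.80, 0.017) rose further there, and SAT1 less far (-1.32, 0.0189), from a knockout level that was already 7318 against 124 in control clones. Of the 52 ribosomal protein genes 21 had a more negative response in knockout clones and none a more positive one. In control clones 14 of them rose and 5 fell, with a median of 0.07. RPS15 (difference -0.77, adjusted p = 0.0207) and RPL30 (-0.35, 0.0301) are examples. Of the 56 G2/M genes 5 had a less negative response in knockout clones, whose median of -0.47 compares with -0.88 in control clones, and no gene of that list differed the other way.

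**Figure D5:**
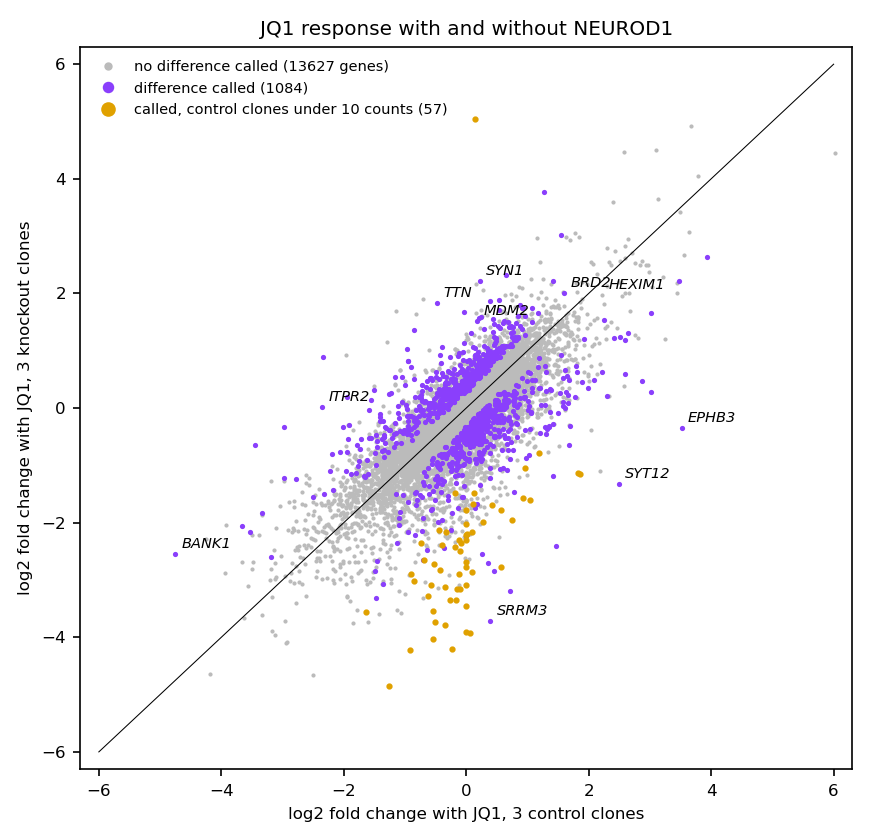
Log2 fold change with JQ1 in the 3 knockout clones (y axis) against that in the 3 control clones (x axis) for 14768 genes, with the line of equal response. Purple points are 1084 genes whose difference was called with counts in both genotypes, and orange points are 57 whose control clones held under 10 counts, most of which lie below the line near a control value of 0.

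The response also differed among the 3 knockout clones. Across genes the log2 fold changes of clones 12 and 15 had a Pearson r of 0.766, those of 12 and 2-1 of 0.727 and those of 15 and 2-1 of 0.808. With single libraries as the measure of spread, the response differed among the clones for 5660 genes (38.3%), and for 1004 (6.8%) the highest and lowest clone differed by at least 2-fold. These p-values cover the spread between libraries of a clone and not that between clones of 1 kind. TXNIP, an inhibitor of thioredoxin and of glucose uptake, rose in all 3 clones but by log2 fold changes of 4.77 in clone 12, 2.36 in clone 15 and 1.63 in clone 2-1, with DMSO libraries at 146 to 685 with a median of 397 and JQ1 libraries at 1895 to 4478 with a median of 2095 (adjusted p among clones 6.16e-16). ENC1, an actin-binding protein of neurons, went from 396 to 774 in clone 12 and from 4108 to 1036 in clone 2-1. NTS, the neuropeptide neurotensin, fell mainly in clone 2-1 (6690.1 to 1587, log2 fold changes -0.29 in clone 12, -0.24 in clone 15 and -2.08 in clone 2-1). PDK4, which shuts off pyruvate dehydrogenase, was lower with JQ1 in clone 12 and higher in the others (-0.46 in clone 12, 1.14 in clone 15 and 0.74 in clone 2-1). None of ENC1, NTS and PDK4 passed the test over clones (adjusted p = 0.62, 0.0844 and 0.223). Without clone 2-1 ENC1 passed as a rise (0.589, adjusted p = 0.0321), and without clone 12 PDK4 did (0.94, adjusted p = 0.0272). With the left-out library included NTS passed as a fall (-1.04, adjusted p = 0.0457). Of the 5660 genes, 25 moved at least 2-fold in opposite directions in different clones.

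Some calls named above did not hold under every setting. With the left-out library included, the falls of AHNAK, BOK, CD14, COL6A3, ERBB2, IFIT1, PARP12, TAP1, TIMP1 and YAP1 did not pass, and with a pseudocount of 0.1 those of BOK, CALCB, CHI3L1, EGFR, PLEKHA2, TIMP1 and YAP1 did not. The fall of EGFL6 did not pass with DESeq2 (adjusted p = 0.0668), and that of CD14 did not pass in FPKM (adjusted p = 0.111). With that library included the medians of the basal, matrix and non-neuroendocrine lists were -1.71, -0.64 and -0.47. Without clone 12 the falls of BOK, CALCB, CHI3L1, EGFR, MST1, PLEKHA2, TIMP1 and YAP1 did not pass. Without clone 15 those of BOK, CALCB, CD14, CHI3L1, INSM1, PLEKHA2 and YAP1 did not, and without clone 2-1 those of BOK, CALCB, TIMP1 and YAP1. Without a clone, with the pseudocount of 0.1 and with DESeq2, the values of the falls listed here were within 1.5 times those given. With the left-out library included, each fall listed for that setting was smaller than given above. There ERBB2 had -0.543, AHNAK -0.325, COL6A3 -1.27, TIMP1 -0.277 and YAP1 -0.552. The fall of CD14 in FPKM was smaller too. Of the genes tested, 718 of 14768 passed the filter through 1 arm alone, so that the filter favours a difference. Of those named, the falls of AGER, APOL4, BMP2, CD14, COL6A3, EDN2, EGFL6, EGFR, GDF15, HTR1A, IL6, LINC00519, MIR205HG, MUC1, NOTCH3, PARP12, SFN, SLC14A1, SRRM3, TAP1, TNFAIP2, TNS4 and TRAC and the rises of ARC, GRM2, RP11-196G18.3, SYN1 and TEX14 are of this kind.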

How the data were processed

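RNA-seq libraries were prepared from poly(A) RNA with a stranded kit, per the labels' protocols, and were processed with cutadapt, STAR and RSEM against hg19, per the submitters' processing notes; their versions and roles were not stated. The deposited values of the authors are DESeq2-normalized counts, a signal of counts divided by size factors, for 19014 genes, and FPKM for 57820 genes. Whole reads were recovered from the normalized counts (100% of values whole within 1e-06), and edgeR on these reads, summed per clone and treatment, called 8634 genes.

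A gene was tested if 8 or more of the 17 knockout libraries reached 10 normalized counts. Values were taken as log2(value + 1), averaged per clone and treatment, and the treatment difference within every clone (JQ1 less DMSO) was fitted in limma 3.58.1 (R 4.3.3) over all 6 clones, with an intensity trend and 1 shared spread for both genotypes, so the clone is the replicate. Differences among clones used single libraries. edgeR 4.0.16 and DESeq2 1.42.0 were alternatives. Only the limma test of JQ1 against DMSO in knockout clones was also run on simulated data. There it recovered 44.8% of 67 genes changed 1.5-fold, 68.8% of 64 changed 2-fold and 93.8% of 64 changed 4-fold. Of its 147 calls, 8.84% were unchanged genes. Only these genes among 14544 were changed, and control clones were given no change. In the data 58.6% of genes were called, so these rates do not carry over to the data. FPKM were tested with an offset of 0.1.

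Named genes were those of fixed interest (BET genes, HEXIM1, MYC, BCL2, NEUROD1), the 12 largest called rises and falls with a mean of at least 50 in the higher arm and 1 direction in all clones, up to 4 called members of each of 50 lists by size of change (or 2 of highest mean), the 5 largest genotype differences each way and the 4 genes of largest F among clones. PEG10, HSP90AA1, PTMA, HIST2H2BF and the genotype differences of CHGA, SYN1, BSN, SYP, SCG2, MDM2, CAV1, CCND1, BRD2, ODC1, SAT1, RPS15 and RPL30 were added after their values were seen. A few genes that this rule names are not reported here. The members and lists were chosen with earlier results of these data known. Positions are from GENCODE 29 (GRCh38), which matched 97.3% of the genes tested by symbol. RefSeq promoters matched 10527 of the 14768 genes. The labels call replicates biological without saying that cultures were separate, so p-values among clones may cover technical spread only.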

Additional observations from a re-analysis of the deposited data

Results flagged for a closer look

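The response to JQ1 differed between genotypes, by a test of the difference itself in limma, for the genes that follow, given as the knockout minus control log2 fold change. Responses were more positive in knockout clones for ADAMTS3 (2.80), F8A3 (2.51), ITPR2 (2.38), TTN (2.30), BANK1 (2.20), SYN1 (1.99), BSN (1.36), MDM2 (1.34), CHGA (1.11), SYP (1.08), ODC1 (0.80) and BRD2 (0.41). They were more negative for SRRM3 (-4.11), EPHB3 (-3.87), SYT12 (-3.81), SCG2 (-1.85), SAT1 (-1.32), CCND1 (-1.13), CAV1 (-0.81), RPS15 (-0.77) and RPL30 (-0.35).

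Among the knockout clones, the highest and the lowest log2 fold change differed by 3.14 for TXNIP, 2.95 for ENC1, 1.84 for NTS and 1.61 for PDK4, by a test of the differences among clones over single libraries.

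The library of clone 12 with JQ1 that was left out held transcripts that the others lack. Its lung epithelium markers summed to 86520 normalized counts, against 1386 to 1951 in the 17 libraries used, and its blood cell markers to 28530 (rounded), against 227 to 952.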

How the results depend on the processing

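The count of 8653 genes changed in knockout clones was 8634 with edgeR, 8344 with DESeq2 and 7981 in FPKM, 7302 to 8279 on leaving out a clone, 8161 to 8220 on leaving out a replicate number, and 1930 at 2-fold or more. In control clones the count of 7929 was 1727 at 2-fold or more, and 5839 to 8555 without a clone. The count of 1141 genotype differences was 478 in FPKM, 428 with the left-out library, 175 with a prior that ignores intensity, 270 at 2-fold or more, 12 to 1583 without a clone, 634 to 1067 without a replicate number and 847 to 1270 without a library. The count of 5660 among clones was 3242 in FPKM, 1594 with the left-out library, 1004 for a range of at least 2-fold and 3459 to 4141 without a replicate number. The cause of these moves was not tested. With single libraries in place of clones, the replicate block gave 11354 genes in knockout clones (11355 without it) and 7243 differences (7278 without it). Same-numbered knockout libraries had r of -0.126 to 0.128, over 0.1 in 3 of 8 pairs. Over both genotypes, 8 of 17 JQ1 libraries correlated best with the DMSO library of their own number. Values this small cannot decide whether the numbers pair the libraries, and the main fit did not use the numbers. Of 13040 comparisons of 218 named genes with an alternative, 12921 kept direction and side of the threshold, 89 lost the call, 12 gained one and 18 turned in sign, all for genes that had not passed: ENC1 (-0.8877 to 0.589 on leaving out clones, replicate numbers or libraries), ITPR2 (-0.0422 with equal totals, -0.0742 to 0.0971 on leaving out), JUP (-0.0189 with equal totals, -0.0384 in FPKM, -0.0765 to 0.2136), NOTCH1 (0.1092 with the left-out library, -0.179 to 0.1732) and S100A10 (0.1357 with the left-out library). For the 21 genotype differences 110 of 1235 comparisons lost the call and none turned. Equal totals moved the median of all genes from -0.04 to -0.10 and the higher share of calls from 47.5% to 40.8%. Depth limits genes near 10 counts most, ACSL5, SRRM3 and IFITM3 with JQ1 among them.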

Other observations

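Metabolic lists moved both ways in knockout clones, where 27.8% of all genes tested rose and 30.8% fell. Of 24 sterol genes 9 rose and 6 fell (median 0.06), with INSIG1, the sterol sensor (1.13, adjusted p = 1.76e-05), IDI1 (1.36, adjusted p = 2.76e-05), LSS (0.68, adjusted p = 4.85e-05) and MVK (0.53, adjusted p = 0.00297) among the rises. Of 13 fatty acid synthesis genes 5 rose, ACACB (0.97, adjusted p = 9.71e-05) and ACSS2 (0.58, adjusted p = 0.00181) among them, and 3 fell, FADS2 (-0.77, adjusted p = 0.000591) and ELOVL6 (-0.67, adjusted p = 0.000866) among them. Of 24 nucleotide and one-carbon genes 7 rose and 8 fell: MTHFD2 of mitochondrial folate metabolism (0.83, adjusted p = 2.65e-05) and PPAT (0.71, adjusted p = 8.11e-05) rose, and MTHFD1L (-0.83, adjusted p = 0.00219) fell. Of 37 lysosome and autophagy genes 12 rose and 15 fell. The autophagy receptor SQSTM1 (1.07, adjusted p = 3.3e-05), NEU1 (0.88, adjusted p = 0.00011) and MAP1LC3B (0.68, adjusted p = 0.000138) rose and the lysosomal master factor TFEB fell (-1.12, adjusted p = 0.000446). Of 21 NRF2 and glutathione genes 8 rose and 6 fell, TXNRD1 (1.28, adjusted p = 3.84e-05) and HMOX1 (1.38, adjusted p = 0.000209) against the steroid reductase AKR1C2 (-1.57, adjusted p = 0.011) and the cystine transporter SLC7A11 (-1.44, adjusted p = 0.00521). Neither fall passed with the left-out library included, and that of AKR1C2 did not pass without clone 15 (-1.20, adjusted p = 0.107). Of 17 integrated stress response genes 4 rose and 4 fell, NUPR1 (-3.05, adjusted p = 6.9e-05) and STC2 (-1.75, adjusted p = 0.000459) among the falls. None of 13 mitochondrially encoded genes passed.

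Among regulators, the homeobox factors NKX2-2 (29.1 ± 15.4 to 4.72 ± 2.48, log2 fold change of -2.43 with an SE of 0.28, adjusted p = 0.000136) and NKX2-1 (-1.40, adjusted p = 0.000204) and SOX9 (-1.25, adjusted p = 0.0003) fell and SOX11 rose (1.04, adjusted p = 0.000139), in a list of 22 lineage factors with 6 higher and 9 lower. Of 10 factors of epithelial and mesenchymal identity 2 rose and 4 fell: GRHL3 (-2.69, adjusted p = 0.000206), PRRX1 (-1.74, adjusted p = 6.8e-05) and ZEB2 (-1.26, adjusted p = 3.77e-05) fell and KLF5 rose (1.38, adjusted p = 0.000353). Of 11 neural helix-loop-helix, E and ID factors 5 rose and 3 fell, ATOH8 (-0.74, adjusted p = 0.00101) among the falls. Of 16 PRC2 and DNA methylation genes 5 rose and 4 fell. The methyltransferases EZH1 (0.66, adjusted p = 0.00293) and EZH2 (0.59, adjusted p = 0.000888) rose and PHF19 (-1.45, adjusted p = 1.62e-05) and TET1 (-0.92, adjusted p = 0.000829) fell. Of 20 histone acetylation enzymes 5 rose and 6 fell, with the deacetylases SIRT1 (1.30, adjusted p = 1.28e-05) and HDAC3 (0.85, adjusted p = 2.1e-05) against HDAC9 (-0.95, adjusted p = 0.00182) and HDAC7 (-0.80, adjusted p = 0.000708). Of 7 SCLC subtype and identity markers 2 rose and 4 fell.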
